A study of Mus musculus with 16 samples.

Results

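The 10 genes described here encode the TGF-beta ligands, their receptors and the latent binding proteins that hold them in the matrix: Tgfb1, Tgfb2, Tgfb3, Tgfbr1, Tgfbr2, Tgfbr3, Ltbp1, Ltbp2, Ltbp3 and Ltbp4. They were found by symbol in a table of read counts for 19799 named genes, the list having been drawn up with earlier results of these data known, and all 10 passed the filter on low counts and were tested. The RNA came from pmi28 cells, a mouse myoblast line whose cells fuse into multinucleated myotubes, in a study of what ectopic msx2 changes in myotubes. Of 2 transgenic lines, the msx2 line held msx2 together with GFP under induction, and the GFP line held GFP alone. The labels do not say whether either line was 1 clone, and both transgenes were in mouse cells kept in culture.

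The 16 libraries formed 6 groups. Induced msx2-line myotubes and induced GFP-line myotubes (3 libraries each) were isolated myotubes that spent 24 h in growth medium (20% fetal bovine serum) with doxycycline, the inducer, at 2 µg/ml. Uninduced msx2-line myotubes and uninduced GFP-line myotubes (3 libraries each) were isolated in the same way without doxycycline, and the labels do not state their medium during those hours. All myotubes had been differentiated in 10% horse serum for 3 days, caught on a mesh to remove mononucleated cells, and kept for 3 days with AraC, which stops cell division. Msx2-line myoblasts and GFP-line myoblasts (2 libraries each) were undifferentiated and uninduced. The labels give growth medium with 20% serum for growing the cells of all 6 groups, the myoblasts among them.

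TGF-beta is secreted as a latent complex in which its own propeptide encloses the mature ligand, and LTBP1, LTBP3 and, more weakly, LTBP4 bind that propeptide and tie it to matrix fibres. LTBP2 does not bind it. Once freed, by αv integrins among others, the ligand binds the type II receptor TGFBR2, which phosphorylates the type I receptor TGFBR1. TGFBR1 then phosphorylates SMAD2 and SMAD3, while TGFBR3 (betaglycan) presents ligand, TGF-beta 2 above all. In cultured myoblasts, added TGF-beta is known as an inhibitor of myogenic differentiation.

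Total counts per library were 19784873 to 33092666. The unit of level is CPM, a gene's reads relative to the TMM-adjusted size of its library. Whether replicates were separate cultures is not stated, so each p-value measures only how these libraries spread, and that spread may be technical. Reads were amplified by PCR, so counting limits cover counting error only. Chi-square per degree of freedom between libraries of a group was 1.95 in GFP-line myoblasts, where 1 is counting noise alone, and 10.504 to 31.3 in the other groups. Msx2 averaged 1440 ± 87.1 CPM in induced msx2-line myotubes and 13.7 ± 1.94 CPM in uninduced ones (SD, n = 3 each), and lay below 2 CPM in every GFP-line library. The summed level of 8 myotube markers was 9581 to 12048 CPM in induced msx2-line myotubes, 19490 to 24325 CPM in the other myotube groups and 322 to 905 CPM in myoblasts. The markers did not move as a set. Myh3 averaged 2076 CPM in induced and 8269 CPM in uninduced msx2-line myotubes, and Acta1, Myog, Mybph and Myh8 were also lower without overlap. Libraries of Tnnc2, Tnnt3 and Ckm overlapped, and Ckm averaged 404 CPM in induced and 339 CPM in uninduced msx2-line myotubes. The summed level of 8 genes of dividing cells was 24.8 to 81.6 CPM in myotubes and 1450 to 1848 CPM in myoblasts. In bulk RNA, fewer cells of a type and less RNA per cell cannot be told apart.

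Promoter windows, 250 bases before to 50 bases after an annotated start (RefSeq, GRCm38.p6), were given for 8 of the 10 genes, in 12 windows. The windows for Tgfb2, Ltbp1 and Ltbp3 are shown because these genes had the largest changes after msx2 induction, Tgfb2 and Ltbp1 downward and Ltbp3 upward. Capitals mark every match to 6 motifs, chosen after these windows were read and searched on both strands: TAATTG (a homeodomain core known for Msx proteins), CAGCTG (an E-box known for myogenic factors), CACGTG (another E-box), CAGAC (a SMAD box), TATAAA (the classical core promoter element) and TGACGTCA (a cyclic AMP response element). The Tgfb2 window is chr1:186705940-186706239 on the minus strand, the Ltbp1 window chr17:75005279-75005578 on the plus strand, at the first of 2 annotated starts, and the Ltbp3 window chr19:5740650-5740949 on the plus strand.
Tgfb2: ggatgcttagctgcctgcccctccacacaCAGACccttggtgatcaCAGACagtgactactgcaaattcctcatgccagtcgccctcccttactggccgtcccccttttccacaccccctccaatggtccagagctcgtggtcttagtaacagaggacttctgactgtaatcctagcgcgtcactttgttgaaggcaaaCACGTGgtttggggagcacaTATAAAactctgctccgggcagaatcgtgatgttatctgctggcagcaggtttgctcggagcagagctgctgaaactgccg
Ltbp1: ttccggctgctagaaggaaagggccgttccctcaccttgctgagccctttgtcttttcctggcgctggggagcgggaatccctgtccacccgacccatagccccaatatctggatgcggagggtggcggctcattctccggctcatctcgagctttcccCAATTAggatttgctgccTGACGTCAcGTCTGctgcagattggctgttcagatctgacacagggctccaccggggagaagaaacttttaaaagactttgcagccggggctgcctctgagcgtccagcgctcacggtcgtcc
Ltbp3: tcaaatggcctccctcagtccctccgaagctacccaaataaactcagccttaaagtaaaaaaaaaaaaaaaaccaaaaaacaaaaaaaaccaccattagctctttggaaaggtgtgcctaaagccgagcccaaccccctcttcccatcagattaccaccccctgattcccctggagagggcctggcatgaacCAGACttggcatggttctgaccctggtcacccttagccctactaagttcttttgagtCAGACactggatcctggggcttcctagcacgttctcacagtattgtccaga

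In the Tgfb2 window CACGTG began 51 bases and TATAAA 31 bases before the start, and SMAD boxes began 221 and 204 bases before it. The Ltbp1 window was the only 1 of the 12 with the homeodomain core, as CAATTA beginning 91 bases before the start, followed by TGACGTCA at 73 and a SMAD box at 64 bases before it, with no overlap between them. The Ltbp3 window held 2 SMAD boxes and none of the other motifs. Among 32851 promoter windows of this length, TAATTG was present in 8%, CAGCTG in 16.3%, CACGTG in 7.15%, CAGAC in 49.6%, TATAAA in 13.6% and TGACGTCA in 1.79%. The single window of Tgfb1 and the 3 windows of Ltbp4 held none of the 6 motifs. A match is a description of letters, and binding was not measured.

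**Figure D1:**
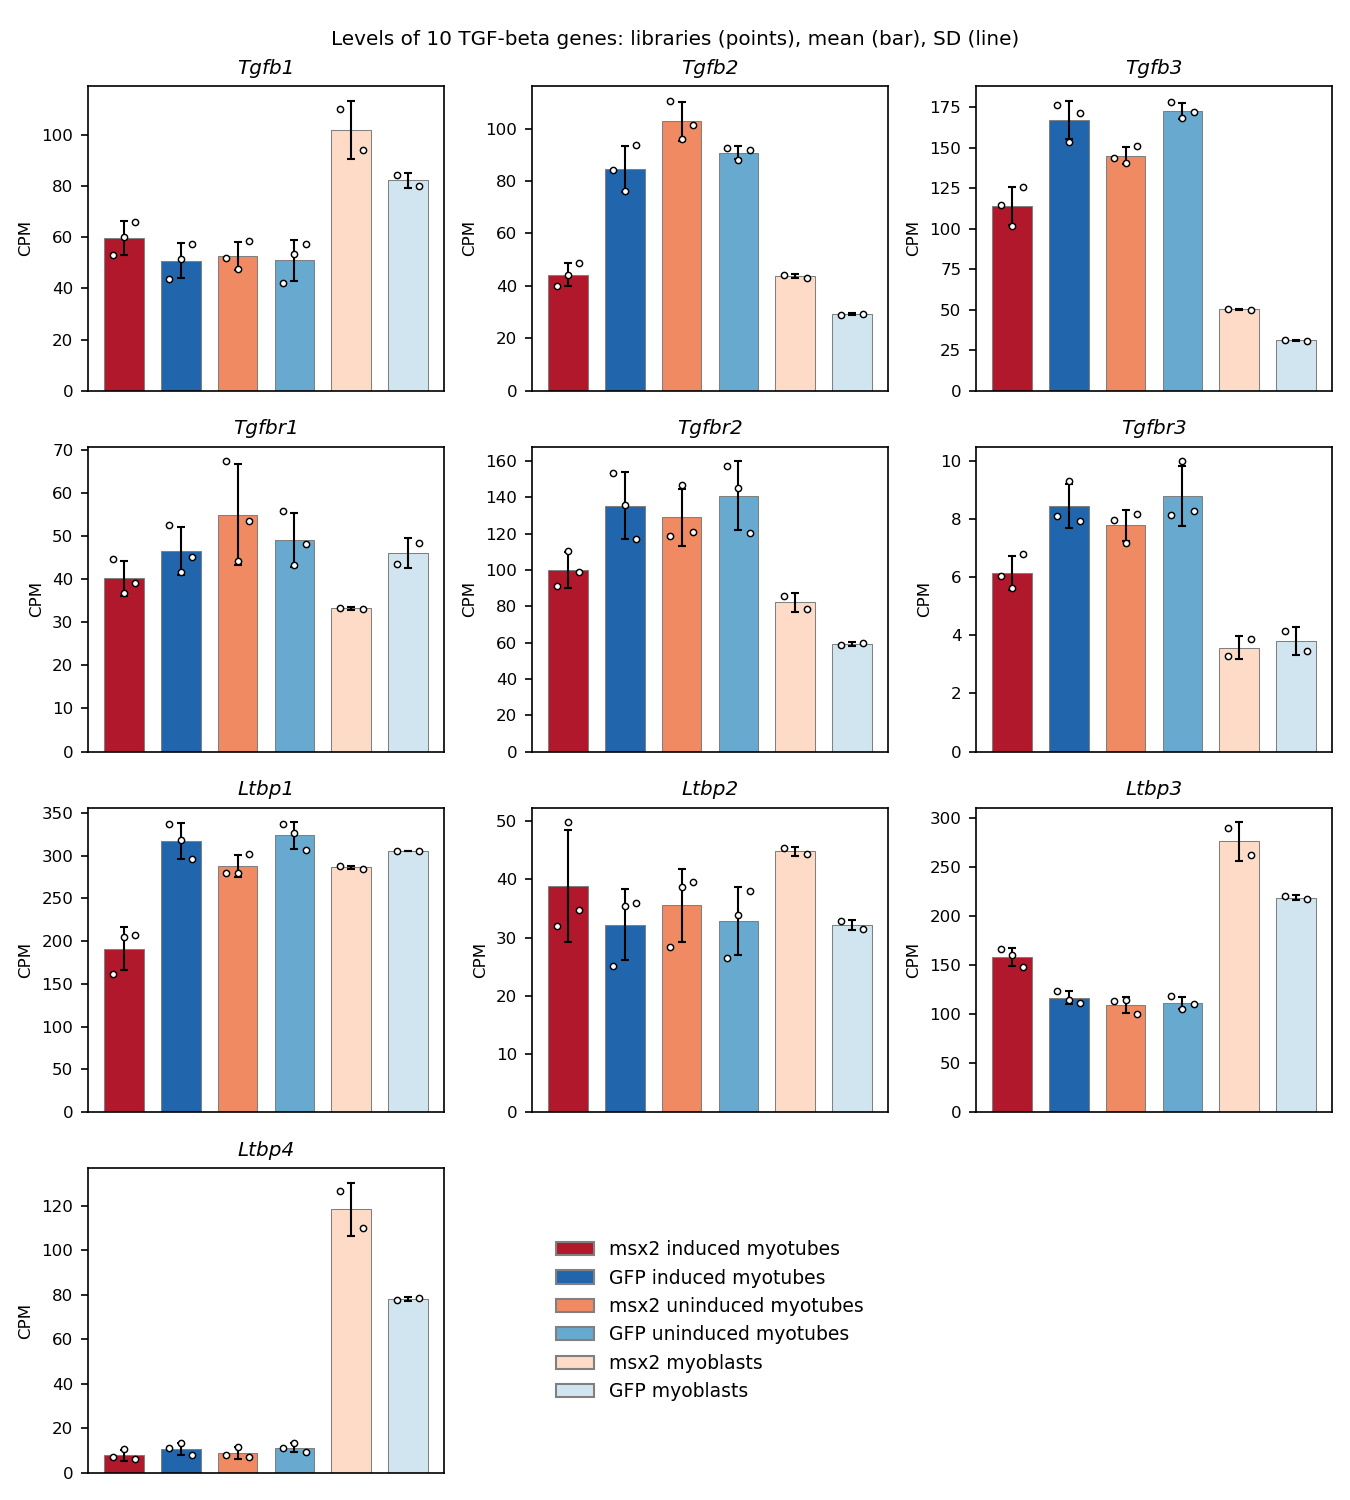
CPM of the 10 genes in 6 groups, with libraries as points, means as bars and SD as lines, each panel on its own axis from 0. Tgfb2 in induced msx2-line myotubes lies near its myoblast level, Ltbp1 is lowest in induced msx2-line myotubes, and Ltbp4 is above 77 CPM in myoblasts and below 14 CPM in every myotube library.

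Among the ligands, Tgfb1 averaged 59.6 ± 6.61 CPM in induced msx2-line, 50.8 ± 6.77 in induced GFP-line, 52.6 ± 5.56 in uninduced msx2-line and 50.9 ± 8.01 in uninduced GFP-line myotubes, and 102 ± 11.4 in msx2-line and 82.2 ± 3.01 in GFP-line myoblasts (SD, n = 3 for myotubes and 2 for myoblasts, here and for the genes that follow). Both myoblast groups stood above all myotube groups, with msx2-line myoblasts highest, and neighbours among the myotube groups overlapped. Tgfb2 averaged 44.2 ± 4.38 CPM in induced msx2-line, 84.7 ± 8.79 in induced GFP-line, 103 ± 7.45 in uninduced msx2-line and 90.8 ± 2.52 in uninduced GFP-line myotubes, and 43.6 ± 0.76 in msx2-line and 29.2 ± 0.41 in GFP-line myoblasts. In the order of its levels, induced msx2-line myotubes overlapped msx2-line myoblasts and the induced and uninduced GFP-line myotubes overlapped each other, while the other neighbours did not. Tgfb3 averaged 114 ± 11.9 CPM in induced msx2-line, 167 ± 11.9 in induced GFP-line, 145 ± 5.39 in uninduced msx2-line and 173 ± 5.06 in uninduced GFP-line myotubes, and 50.2 ± 0.47 in msx2-line and 31.1 ± 0.11 in GFP-line myoblasts. Its order ran from both GFP-line myotube groups, which overlapped, down to the msx2-line myotubes and then the myoblasts, with no other overlap of neighbours.

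Among the receptors, Tgfbr1 averaged 40.1 ± 4.11 CPM in induced msx2-line, 46.4 ± 5.52 in induced GFP-line, 54.9 ± 11.7 in uninduced msx2-line and 49.1 ± 6.30 in uninduced GFP-line myotubes, and 33.2 ± 0.25 in msx2-line and 46.0 ± 3.50 in GFP-line myoblasts. All neighbours in its order overlapped except msx2-line myoblasts, which were lowest. Tgfbr2 averaged 100.05 ± 9.81 CPM in induced msx2-line, 135 ± 18.2 in induced GFP-line, 129 ± 15.7 in uninduced msx2-line and 141 ± 18.9 in uninduced GFP-line myotubes, and 82.3 ± 5.16 in msx2-line and 59.1 ± 0.98 in GFP-line myoblasts. Induced msx2-line myotubes lay between the other myotubes, which overlapped, and the myoblasts, without overlap with either. Tgfbr3 averaged 6.16 ± 0.59 CPM in induced msx2-line, 8.46 ± 0.76 in induced GFP-line, 7.79 ± 0.53 in uninduced msx2-line and 8.80 ± 1.03 in uninduced GFP-line myotubes, and 3.58 ± 0.40 in msx2-line and 3.81 ± 0.48 in GFP-line myoblasts. The place of induced msx2-line myotubes was the same as for Tgfbr2, and here the myoblast groups overlapped each other.

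Among the latent binding proteins, Ltbp1 averaged 191 ± 25.4 CPM in induced msx2-line, 317 ± 20.7 in induced GFP-line, 287 ± 12.9 in uninduced msx2-line and 324 ± 15.7 in uninduced GFP-line myotubes, and 286 ± 2.04 in msx2-line and 305 ± 0.14 in GFP-line myoblasts. Induced msx2-line myotubes were lowest without overlap, msx2-line myoblasts and uninduced msx2-line myotubes overlapped, and the 3 GFP-line groups were highest and overlapped neighbour to neighbour. Ltbp2 averaged 38.8 ± 9.63 CPM in induced msx2-line, 32.2 ± 6.10 in induced GFP-line, 35.5 ± 6.29 in uninduced msx2-line and 32.8 ± 5.82 in uninduced GFP-line myotubes, and 44.8 ± 0.73 in msx2-line and 32.2 ± 0.87 in GFP-line myoblasts. Every neighbour in its order overlapped, but msx2-line myoblasts lay above uninduced msx2-line myotubes and above GFP-line myoblasts without overlap. Ltbp3 averaged 158 ± 9.57 CPM in induced msx2-line, 117 ± 6.56 in induced GFP-line, 109 ± 8.02 in uninduced msx2-line and 111 ± 6.46 in uninduced GFP-line myotubes, and 276 ± 19.8 in msx2-line and 219 ± 2.53 in GFP-line myoblasts. Both myoblast groups were highest and induced msx2-line myotubes next, without overlap, and the 3 other myotube groups overlapped neighbour to neighbour. Ltbp4 averaged 8.00 ± 2.43 CPM in induced msx2-line, 10.9 ± 2.58 in induced GFP-line, 8.93 ± 2.57 in uninduced msx2-line and 11.4 ± 1.99 in uninduced GFP-line myotubes, and 118 ± 11.9 in msx2-line and 78.1 ± 0.77 in GFP-line myoblasts. Myoblasts stood above all myotubes, whose neighbours overlapped.

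The first question was what msx2 changes in myotubes, addressed by induced against uninduced msx2-line myotubes. Of the 10 genes, 1 rose (Ltbp3) and 6 fell (Tgfb2, Tgfb3, the 3 receptor genes and Ltbp1), at an adjusted p under 0.05. Of all 16245 genes tested 32.5% passed, 16.2% higher and 16.3% lower. The median log2 fold change was -0.34 over the 10 genes and -0.01 over all genes.

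Tgfb2, for the ligand that depends most on TGFBR3, was at 39.9, 44.2 and 48.6 CPM in induced msx2-line myotubes, against 110.7, 96.0 and 101.5 CPM in uninduced ones. The groups did not overlap, and every induced library was below 50 CPM. The change was 2.32-fold downward (log2 -1.21 ± 0.08 SE, edgeR adjusted p = 3.73e-08). Tgfb3, for a ligand best known from palate development, was at 114.8, 101.8 and 125.6 CPM in induced msx2-line myotubes, against 143.8, 140.65 and 151.1 CPM in uninduced ones. These groups did not overlap either, and the change was smaller (log2 -0.35 ± 0.07, edgeR adjusted p = 0.00134). Tgfb1, for the best studied of the ligands, was at 52.8, 59.9 and 66.0 CPM in induced msx2-line myotubes, against 51.9, 47.4 and 58.5 CPM in uninduced ones. Its groups overlapped, and its change did not pass the test (log2 0.18 ± 0.13, edgeR adjusted p = 0.31). Within pairs of same-numbered libraries Tgfb1 was higher in the induced library of all 3 pairs. It did not pass with the replicate number as a block either.

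The 3 receptor genes changed by similar amounts. Tgfbr2, for the type II receptor, was at 91.0, 110.5 and 98.6 CPM in induced msx2-line myotubes, against 118.8, 147 and 121.2 CPM in uninduced ones (log2 -0.37 ± 0.12, edgeR adjusted p = 0.0251). Tgfbr3, for the co-receptor betaglycan, was at 6.04, 5.63 and 6.80 CPM in induced msx2-line myotubes, against 7.99, 7.18 and 8.19 CPM in uninduced ones (log2 -0.34 ± 0.12, edgeR adjusted p = 0.0469). For both genes the induced libraries lay below the uninduced ones without overlap. Tgfbr1, for the signalling type I receptor, was at 44.7, 36.7 and 39.0 CPM in induced msx2-line myotubes, against 67.3, 44.1 and 53.4 CPM in uninduced ones, which overlapped (log2 -0.45 ± 0.14, edgeR adjusted p = 0.0214). Within pairs of same-numbered libraries, all 3 receptor genes were lower in the induced library of all 3 pairs, and with the replicate number as a block all 3 still passed. In the fit without the block, all 3 receptor calls depended on single libraries. Without uninduced replicate 1 the Tgfbr1 change was -0.28 (adjusted p = 0.103), without uninduced replicate 2 the Tgfbr2 change was -0.26 (adjusted p = 0.112), and without induced replicate 2 the Tgfbr3 change was -0.27 (adjusted p = 0.15). Leaving out induced replicate 3 or induced replicate 2 for Tgfbr1, induced replicate 1 or 3 for Tgfbr2, and uninduced replicate 1 or 3 or induced replicate 1 for Tgfbr3 also ended the call.

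The latent binding proteins moved in different directions. Ltbp1 was at 161.9, 204.8 and 206.9 CPM in induced msx2-line myotubes, against 280.04, 279.9 and 302 CPM in uninduced ones. No library overlapped, and the change was 1.503-fold downward (log2 -0.59 ± 0.08, edgeR adjusted p = 4.63e-05). Ltbp3, whose product, like that of Ltbp1, binds the latent ligand, was at 166.6, 160.4 and 147.8 CPM in induced msx2-line myotubes, against 113, 114 and 99.8 CPM in uninduced ones. It was the only gene of the 10 that rose, with no overlap (log2 0.54 ± 0.07, edgeR adjusted p = 2.66e-05). Ltbp2 was at 32.0, 49.9 and 34.7 CPM in induced msx2-line myotubes, against 28.3, 38.8 and 39.6 CPM in uninduced ones, and Ltbp4 at 7.14, 10.7 and 6.12 CPM in induced and 7.99, 11.8 and 6.97 CPM in uninduced ones. Neither passed the test (edgeR adjusted p = 0.668 for Ltbp2 and 0.666 for Ltbp4), and their libraries overlapped. Same-numbered libraries are paired here, and Ltbp4 was lower in the induced library of all 3 pairs. It did not pass with the replicate block (log2 -0.17, adjusted p = 0.387) or the GC offset (-0.36, adjusted p = 0.312), but passed with both together (-0.37, adjusted p = 0.0367). Summed over the 4 genes, latent binding protein reads came to 396 ± 29.1 CPM in induced msx2-line myotubes and 441 ± 10.2 CPM in uninduced ones, while ligand reads came to 218 ± 19.4 CPM in induced and 300.5 ± 14.4 CPM in uninduced ones.

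Ltbp2 overlaps an exon of D030025P21Rik, on the opposite strand and also in the count table. The strand setting of the counting is not given in the sources used here, so reads of genes that overlap on opposite strands cannot be told apart if strand was ignored. Transcript GC content moved with the comparison: the median log2 change was -0.13 in the tenth of genes with the lowest GC content and 0.18 in the tenth with the highest (1616 genes each). Among the 10 genes GC content ran from 41% in Tgfbr1 to 62.2% in Ltbp4, with 58.3% in Ltbp3. With an offset for GC content Tgfb2 (-1.14), Tgfb3 (-0.44), Ltbp1 (-0.66) and Ltbp3 (0.35) still passed, whereas Tgfbr1 (-0.32, adjusted p = 0.0813) and Tgfbr3 (-0.30, adjusted p = 0.0663) did not. The sum of the myotube markers, lower in induced msx2-line myotubes as given above, moved in the same comparison, and its part in these changes was not tested. Of 8 fibroblast markers, summed at 93.4 to 98.4 CPM in induced msx2-line myotubes and 111 to 121 CPM in uninduced ones, Lum, Thy1 and Tcf21 were below 0.5 CPM in every group mean, and the sum is mostly Dpep1 and Pdgfra.

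The GFP line received the same induction without msx2 and so served as the control for doxycycline, growth medium and GFP. None of the 10 genes passed, and their log2 changes lay between -0.10 (Tgfb2) and 0.07 (Ltbp3), with 0 of 10 at an unadjusted p under 0.05. The background was 0.0308% of genes by edgeR, 5 in number, all higher, while 164 genes had an unadjusted p under 0.05 and DESeq2 called 10 genes and 0 of the 10 members. With the replicate number as a block, which pairs these libraries, edgeR called 9 genes. Tgfb2 was at 84.2, 76.1 and 93.7 CPM in induced GFP-line myotubes, against 92.4, 87.9 and 92.0 CPM in uninduced ones, with overlap. Ltbp1 was at 337, 318 and 296 CPM in induced GFP-line myotubes, against 337.5, 327 and 307 CPM in uninduced ones, also with overlap.

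The difference between the inductions, msx2 line minus GFP line, was tested directly, and 4 of the 10 genes passed, 1 positive and 3 negative, against a background of 17.9% (9.15% positive and 8.78% negative). Tgfb2 differed by -1.11 ± 0.12 log2 (edgeR adjusted p = 9.89e-06), Ltbp1 by -0.56 ± 0.12 (adjusted p = 0.00307) and Ltbp3 by 0.47 ± 0.10 (adjusted p = 0.00373). With the GC offset alone the Ltbp3 difference was 0.28 and did not pass (adjusted p = 0.0921). Tgfb3 differed by -0.30 ± 0.10 with an adjusted p of 0.0491, and it did not pass with no low-count filter (adjusted p = 0.0646), with only the compared groups (0.0919) or when any of 9 of the 12 libraries was left out, with values of -0.22 to -0.33 and adjusted p of 0.0585 to 0.118. The receptor differences were -0.37 ± 0.20 for Tgfbr1, -0.31 ± 0.16 for Tgfbr2 and -0.28 ± 0.17 for Tgfbr3, and none passed (edgeR adjusted p = 0.229, 0.233 and 0.312 in that order). Tgfb1, Ltbp2 and Ltbp4 did not pass, with differences of 0.19 ± 0.18, 0.15 ± 0.27 and -0.10 ± 0.35.

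**Figure D2:**
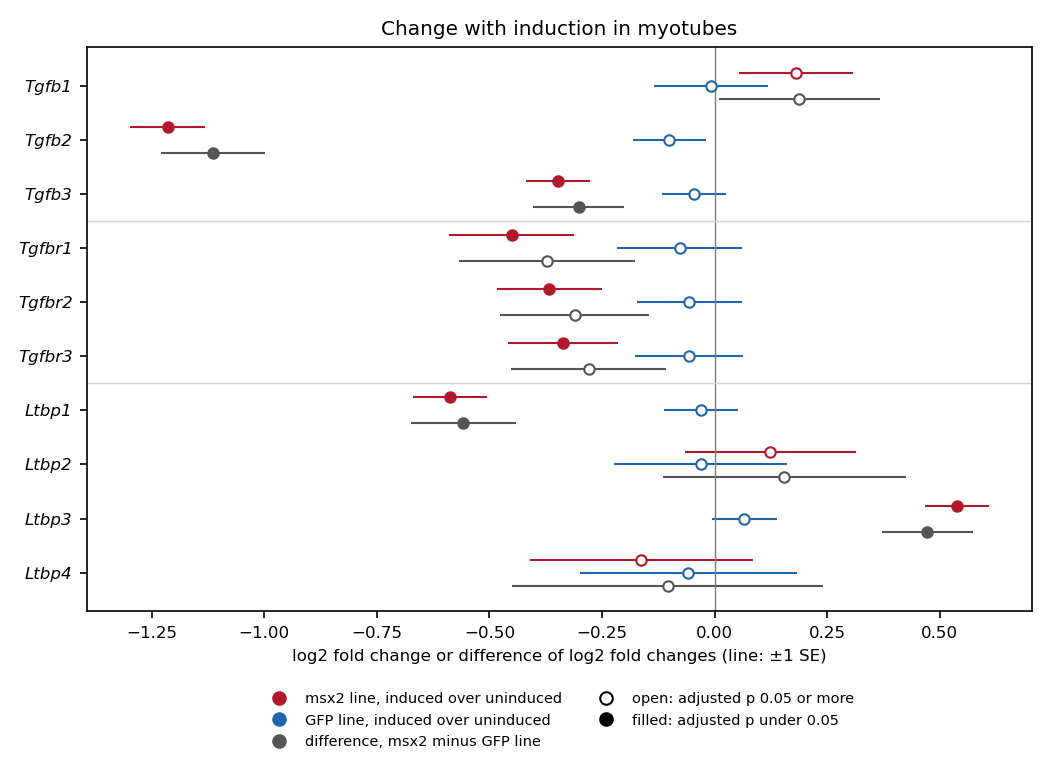
Log2 fold change with induction in each line, and the difference between lines, for the 10 genes, with lines of 1 SE and filled points for an adjusted p under 0.05. The GFP-line points lie within 0.11 of 0 for all 10 genes, while Tgfb2 is at -1.21 and Ltbp3 at 0.54 in the msx2 line.

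The make-up of the ligand RNA was compared per length, as CPM per kilobase of the longest annotated transcript. Tgfb2 made up 12.5 to 13.9% of ligand RNA in induced msx2-line myotubes, against 22.7 to 25.7% in uninduced ones. Tgfb1 made up 32.98 to 37.5% in induced msx2-line myotubes, against 23.4 to 26.1% in uninduced ones. Neither pair of ranges overlapped, whereas the Tgfb3 share was 48.6 to 54.5% in induced and 50.4 to 52.8% in uninduced msx2-line myotubes. In the GFP line the Tgfb2 share was 18.5 to 20.1% in induced myotubes and 19.6 to 20.8% in uninduced ones. In myoblasts Tgfb1 held most of the ligand RNA, 61.2 to 64.4% in the msx2 line and 67.6 to 68.8% in the GFP line. The direction of the Tgfb1 and Tgfb2 shares was the same per kilobase of the median annotated transcript, but the order of the ligands was not: uninduced msx2-line myotubes then held 30.9% Tgfb1, 51.5% Tgfb2 and 17.7% Tgfb3.

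Across the 10 genes, on the same scale, Ltbp1 (43.1 ± 1.93 CPM per kilobase) and Tgfb3 (42.9 ± 1.59) had the highest levels in uninduced msx2-line myotubes and did not differ beyond their spread. Tgfb1, Tgfb2, Ltbp3 and Tgfbr2 followed at 15.9 to 20.4 CPM per kilobase, each overlapping its neighbour, and then Tgfbr1 at 9.54 and Ltbp2 at 5.25. Ltbp4 (1.66 ± 0.48) and Tgfbr3 (1.28 ± 0.09) were lowest and overlapped (SD, n = 3). In msx2-line myoblasts the order was led by Ltbp3 (48.2 ± 3.46), Ltbp1 (42.9 ± 0.31) and Tgfb1 (39.6 ± 4.43), followed by Ltbp4 at 21.99 ± 2.22 CPM per kilobase (SD, n = 2). Per kilobase of the median transcript the order in uninduced msx2-line myotubes was another, led by Tgfb2 at 125, with Tgfb3 at 42.9 behind Ltbp3, Ltbp1 and Tgfb1, and with Ltbp4 (2.52) below Tgfbr3 (3.69).

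The rest of the pathway was followed through 4 lists of 61 genes, all tested. After msx2 induction 6 rose and 12 fell, 43 did not pass, and the median log2 change was -0.08, against -0.01 over all genes. The share that passed was 29.5%, against the background of 32.5% of all genes. After GFP-line induction 0 of 61 passed by edgeR, 0 had an unadjusted p under 0.05 and DESeq2 called 0.

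Of 17 genes of latency and activation, 1 rose and 4 fell in induced msx2-line myotubes. Itgb6, for the β6 chain of the integrin αvβ6, which frees latent TGF-beta, averaged 43.7 ± 8.18 CPM in induced msx2-line myotubes and 118 ± 7.90 CPM in uninduced ones (log2 -1.43 ± 0.11, edgeR adjusted p = 1.13e-07). Itgb1, for the integrin β1 chain, averaged 1114 ± 51.2 CPM in induced and 1804 ± 85.9 CPM in uninduced msx2-line myotubes (log2 -0.70 ± 0.06). Furin, for the protease that cleaves the TGF-beta precursor, had a log2 change of 0.25 ± 0.08, which 7 of 13 alternatives ended. Both integrin changes also differed between the lines, by -1.46 ± 0.15 for Itgb6 and -0.64 ± 0.09 for Itgb1 (edgeR adjusted p = 9.97e-06 and 0.00013).

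Of 9 accessory receptors and decoys, 0 rose and 3 fell. Acvr1, for an activin and BMP type I receptor, averaged 29.0 ± 3.84 CPM in induced msx2-line myotubes and 45.1 ± 2.59 CPM in uninduced ones (log2 -0.64 ± 0.08, edgeR adjusted p = 1.77e-05). Cd109, for a surface protein that binds TGF-beta, averaged 89.3 ± 6.74 CPM in induced and 124 ± 2.08 CPM in uninduced msx2-line myotubes (log2 -0.48 ± 0.10). The difference between the lines passed for Acvr1 (-0.60 ± 0.11, edgeR adjusted p = 0.00159).

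Of 19 genes of intracellular signalling and feedback, 3 rose and 2 fell. Ski, for a co-repressor that binds SMAD2, SMAD3 and SMAD4, averaged 246 ± 8.15 CPM in induced msx2-line myotubes and 148 ± 9.13 CPM in uninduced ones (log2 0.73 ± 0.10, edgeR adjusted p = 3.48e-05). Smad3, for a transcription factor that the receptor phosphorylates, averaged 124 ± 3.71 CPM in induced and 77.5 ± 9.64 CPM in uninduced msx2-line myotubes (log2 0.68 ± 0.11, adjusted p = 0.000148). Zfyve9, for the protein SARA that brings SMADs to the receptor, fell by 0.46 ± 0.08 on the log2 scale. Ski, Smad3 and Zfyve9 passed the test of the difference between lines too, at 0.81 ± 0.14, 0.70 ± 0.15 and -0.46 ± 0.11. Strap, for a protein that binds the receptors and SMAD7, had a log2 change of -0.15 ± 0.05, which 9 of 13 alternatives ended.

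Of 16 transcriptional targets, 2 rose and 3 fell. Acta2, for smooth muscle actin, averaged 443 ± 196 CPM in induced msx2-line myotubes and 1062 ± 146 CPM in uninduced ones (log2 -1.26 ± 0.26, edgeR adjusted p = 0.00211). Cdkn2b, for the cell cycle inhibitor p15, changed by -0.45 ± 0.09 (adjusted p = 0.000818). The rises were in Snai1, for a transcription factor of epithelial-mesenchymal transition (0.57 ± 0.16), and Ctgf, for connective tissue growth factor (0.77 ± 0.27), whose libraries overlapped and whose calls ended in 3 and 7 of 13 alternatives. The differences between lines for Acta2 (-1.14 ± 0.36, adjusted p = 0.0434) and Cdkn2b (-0.37 ± 0.12, adjusted p = 0.047) ended in 12 and 11 of 19 alternatives.

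**Figure D3:**
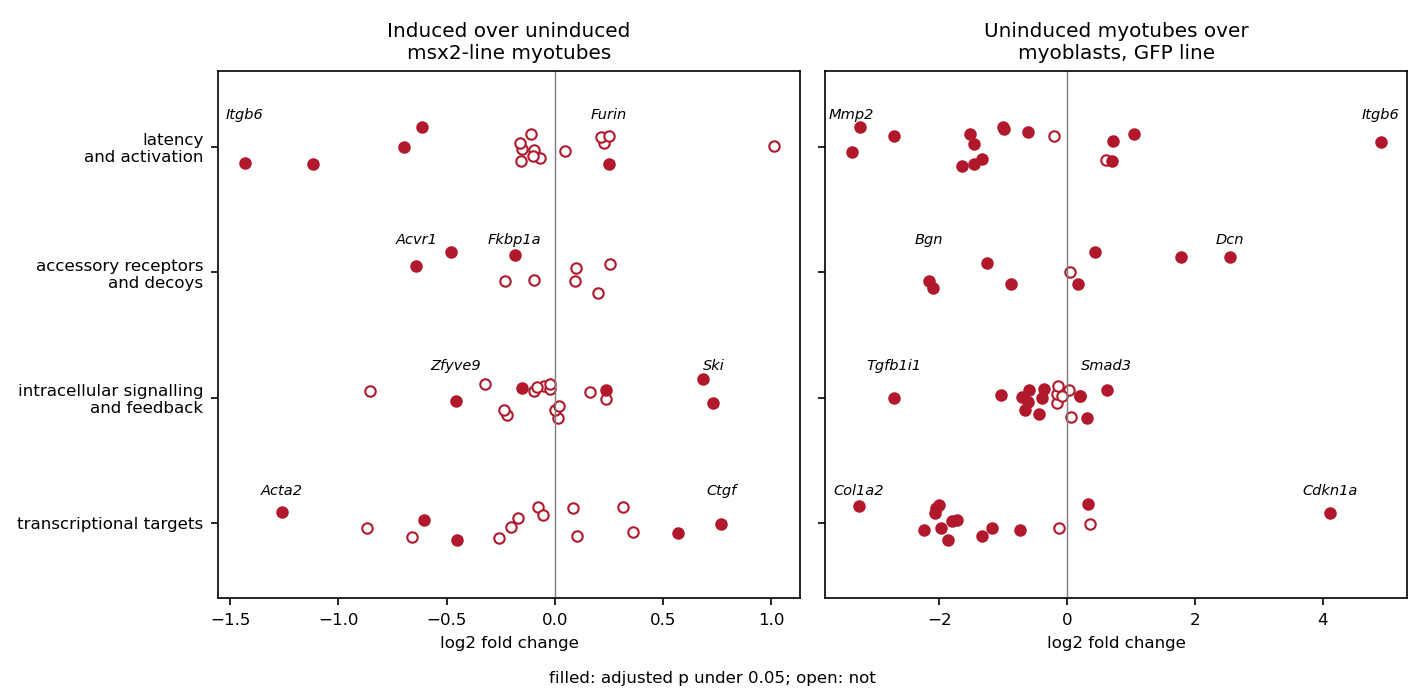
Log2 fold changes of 61 other genes of the pathway in 4 lists, after msx2 induction (left) and with differentiation in the GFP line (right), with filled points for an adjusted p under 0.05 and the lowest and highest called genes named. On the left 6 filled points lie above 0 and 12 below it, and on the right 13 lie above and 36 below.

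The second question was how the genes differ between the differentiated and the undifferentiated state, addressed by uninduced myotubes against myoblasts in each line. In the msx2 line 8 of the 10 genes passed, 5 higher and 3 lower in myotubes, and in the GFP line 7 passed, 4 higher and 3 lower. The background was 79.8% of genes in the msx2 line (40.8% higher and 39% lower) and 77.7% in the GFP line (39.8% higher and 37.9% lower), so counts of this size are near it. Myotubes were put in 10% horse serum, isolated and kept in AraC and myoblasts were not, so differentiation, medium and handling cannot be told apart. The summed level of dividing-cell genes given above moved with this comparison, and its part in these changes was not tested.

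Tgfb3 was at 143.8, 140.65 and 151.1 CPM in uninduced msx2-line myotubes, against 50.6 and 49.9 CPM in msx2-line myoblasts (log2 1.53 ± 0.08, edgeR adjusted p = 1.81e-10). In the GFP line it was at 178, 168 and 172 CPM in uninduced myotubes, against 31.2 and 31.0 CPM in myoblasts (log2 2.47 ± 0.09, adjusted p = 2.02e-12). Every myotube library was above every myoblast library in both lines. Tgfb2 rose by 1.23 ± 0.10 log2 in msx2-line myotubes, whose myoblasts had 44.2 and 43.1 CPM, and by 1.64 ± 0.10 in GFP-line myotubes, whose myoblasts had 28.9 and 29.5 CPM. Tgfb1 moved the other way. It was at 51.9, 47.4 and 58.5 CPM in uninduced msx2-line myotubes, against 109.98 and 93.9 CPM in msx2-line myoblasts (log2 -0.95 ± 0.14), and at 41.9, 53.5 and 57.3 CPM in uninduced GFP-line myotubes, against 84.3 and 80.04 CPM in GFP-line myoblasts (log2 -0.69 ± 0.14).

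Tgfbr2 was at 118.8, 147 and 121.2 CPM in uninduced msx2-line myotubes, against 85.9 and 78.6 CPM in msx2-line myoblasts (log2 0.65 ± 0.13, edgeR adjusted p = 0.0004). In the GFP line it was at 157, 145 and 120.3 CPM in uninduced myotubes, against 58.5 and 59.8 CPM in myoblasts (log2 1.25 ± 0.14, adjusted p = 7.76e-07). Neither line showed overlap. Tgfbr3 rose by 1.12 ± 0.15 in the msx2 line and 1.21 ± 0.15 in the GFP line. Tgfbr1 passed in the msx2 line, at 67.3, 44.1 and 53.4 CPM in uninduced myotubes, against 33.3 and 32.98 CPM in myoblasts (log2 0.72 ± 0.16, adjusted p = 0.000744), but not in the GFP line (0.09 ± 0.16, adjusted p = 0.599). With the GC offset the msx2-line value was 0.22 and did not pass (adjusted p = 0.19). In that line the median log2 change was 0.62 in the tenth of genes with the lowest GC content and -0.33 in the tenth with the highest. Tgfbr1 had the lowest GC content of the 10 genes, as given above.

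Ltbp4 had the largest difference of the 10 genes. It was at 7.99, 11.8 and 6.97 CPM in uninduced msx2-line myotubes, against 126.9 and 109.99 CPM in msx2-line myoblasts, a level 13.2-fold lower (log2 -3.73 ± 0.25, edgeR adjusted p = 1.22e-08). In the GFP line it was at 11.1, 13.5 and 9.56 CPM in uninduced myotubes, against 77.6 and 78.7 CPM in myoblasts, 6.88-fold lower (log2 -2.78 ± 0.24, adjusted p = 2.11e-07). Ltbp3 was at 113, 114 and 99.8 CPM in uninduced msx2-line myotubes, against 290.2 and 262 CPM in msx2-line myoblasts (log2 -1.34 ± 0.08), and it had a change of -0.97 ± 0.08 in the GFP line. Ltbp1 did not pass in either line, with changes of 0.01 ± 0.09 in the msx2 line and 0.08 ± 0.09 in the GFP line, and neither did Ltbp2 (-0.33 ± 0.21 and 0.03 ± 0.22). In induced msx2-line myotubes Ltbp1 lay between 161.9 and 206.9 CPM, below every library of the other groups.

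The change with differentiation was compared between lines, and 1 of the 10 genes passed, with a negative value, against a background of 8.28% (4.01% positive and 4.27% negative). Tgfb3 differed by -0.94 ± 0.12 log2, msx2 line minus GFP line (edgeR adjusted p = 0.000191). Tgfb2 (-0.40 ± 0.13, adjusted p = 0.0742), Tgfbr1 (0.63 ± 0.22, 0.0954), Tgfbr2 (-0.60 ± 0.19, 0.0607), Ltbp3 (-0.37 ± 0.11, 0.056) and Ltbp4 (-0.94 ± 0.35, 0.118) did not pass. DESeq2 called 6 of the 10 genes, these 5 and Tgfb3, and edgeR called 5 without uninduced msx2-line replicate 2 and 2 without uninduced msx2-line replicate 1 or uninduced GFP-line replicate 3. Over all genes 651 values were positive and 694 negative among those that passed, and with the GC offset 212 and 371.

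**Figure D4:**
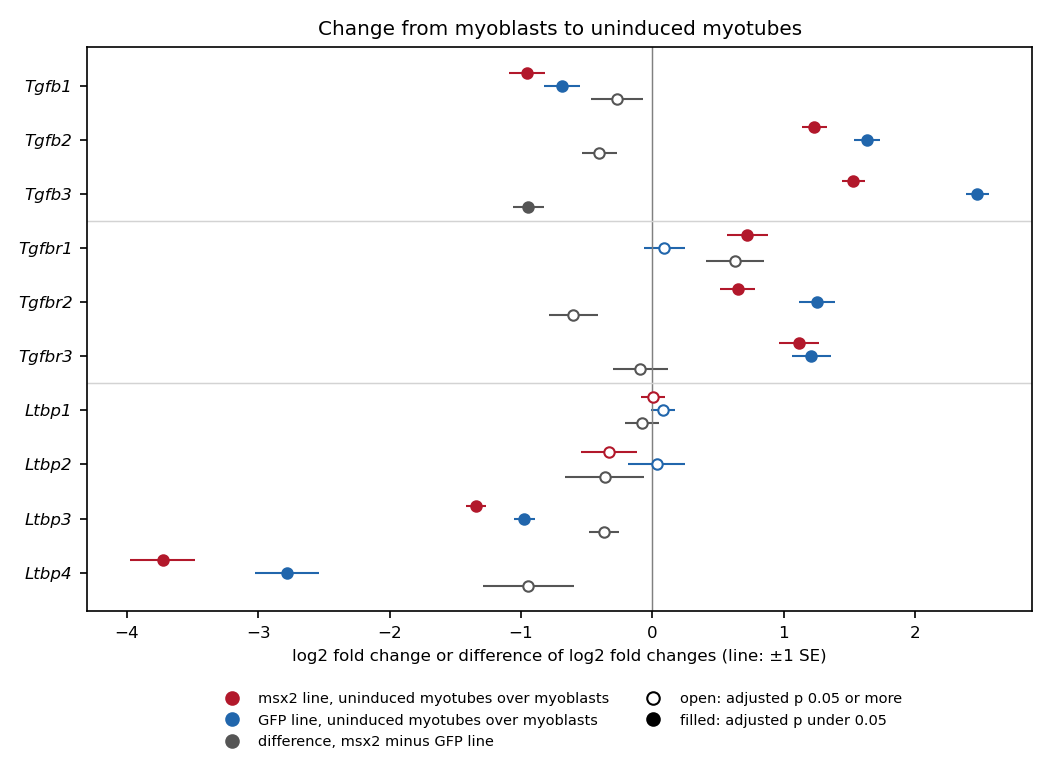
Log2 fold change of uninduced myotubes over myoblasts in each line, and the difference between lines, for the 10 genes, with lines of 1 SE and filled points for an adjusted p under 0.05. Tgfb2, Tgfb3, Tgfbr2 and Tgfbr3 lie above 0 and Tgfb1, Ltbp3 and Ltbp4 below it in both lines, and only Tgfb3 has a filled point for the difference.

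Of the 61 other pathway genes, 11 were higher and 39 lower in uninduced msx2-line myotubes than in msx2-line myoblasts, with a median log2 change of -0.68, against 0.08 over all genes. The GFP line had 13 higher and 36 lower, with a median of -0.61, against 0.06. The shares that passed, 82% in the msx2 line and 80.3% in the GFP line, were near the backgrounds given above. Of 17 genes of latency and activation 4 rose and 11 fell in the GFP line. Itgb6 averaged 118 ± 7.90 CPM in uninduced msx2-line myotubes and 5.48 ± 0.57 CPM in msx2-line myoblasts (log2 4.43 ± 0.16, edgeR adjusted p = 2.04e-12). Its GFP-line means were 128 ± 11.6 CPM in uninduced myotubes and 4.27 ± 0.43 CPM in myoblasts (log2 4.91 ± 0.16, adjusted p = 1.01e-12). Lrrc33, for a protein that anchors latent TGF-beta on the surface of macrophages and microglia, rose by 1.05 ± 0.08. Furin had a change of -1.33 ± 0.09, and Emilin1, for a matrix glycoprotein that binds the TGF-beta precursor, one of -2.70 ± 0.18.

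Of 9 accessory receptors and decoys 4 rose and 4 fell with differentiation of the GFP line. Dcn, for the proteoglycan decorin, which binds TGF-beta, rose by 2.55 ± 0.51 but only to 1.52 ± 0.20 CPM, and Acvrl1, for the type I receptor ALK1 of endothelial cells, rose by 1.79 ± 0.47 to 1.11 ± 0.17 CPM. Fkbp1a, for a protein that binds the type I receptor and holds it inactive, averaged 185 ± 15.8 CPM in uninduced GFP-line myotubes and 442 ± 9.78 CPM in GFP-line myoblasts. Bambi, for a decoy receptor, averaged 1.06 ± 0.17 CPM in those myotubes and 4.47 ± 0.01 CPM in those myoblasts.

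Of 19 genes of intracellular signalling and feedback 3 rose and 9 fell in the GFP line. Smad3 averaged 78.7 ± 10.52 CPM in uninduced GFP-line myotubes and 51.1 ± 0.45 CPM in GFP-line myoblasts (log2 0.62 ± 0.12). Smad4, for the shared partner of the receptor-regulated SMADs, had a change of -0.71 ± 0.06, and Smad7, for the inhibitory SMAD of the pathway, one of -1.03 ± 0.08. Usp15, for an enzyme that removes ubiquitin from the type I receptor, rose by 0.31 ± 0.09, a call that 3 of 12 alternatives ended. Of 16 transcriptional targets 2 rose and 12 fell. Cdkn1a, for the cell cycle inhibitor p21, which MyoD also induces in myotubes, averaged 1554 ± 30.1 CPM in uninduced GFP-line myotubes and 89.5 ± 0.33 CPM in GFP-line myoblasts. Tpm1, for a tropomyosin of muscle and of stress fibres, rose by 0.32 ± 0.07, and Tgfbi, for a matrix protein named for its induction by TGF-beta, and Snai2, for a relative of Snai1, had changes of -2.07 ± 0.15 and -2.01 ± 0.16.

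With differentiation of the msx2 line the pathway genes of smallest adjusted p were Cdkn1a (3.61 ± 0.08 log2), Itgb6 and Itgb1 (0.98 ± 0.07) among the risers and Furin (-1.65 ± 0.09), Fkbp1a (-1.32 ± 0.07) and Smad4 (-0.86 ± 0.06) among the fallers.

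The lines were also set against each other in the same state. In induced myotubes 6 of the 10 genes passed, 1 higher and 5 lower in the msx2 line, against a background of 35.3% (17.6% higher and 17.8% lower). Tgfb2 had a log2 value of -0.94 ± 0.08, msx2 line over GFP line (edgeR adjusted p = 3.96e-07), Tgfb3 one of -0.55 ± 0.07, Ltbp1 one of -0.73 ± 0.08, Tgfbr2 one of -0.44 ± 0.12 and Tgfbr3 one of -0.46 ± 0.12, while Ltbp3 was higher by 0.44 ± 0.07. Of the 61 other pathway genes 11 were higher and 11 lower, a share of 36.1%, near the background. Those of smallest adjusted p were Ski (0.75 ± 0.10), Smad3 (0.68 ± 0.11) and Tpm1 (0.30 ± 0.06) among the higher, and Itgb6 (-1.58 ± 0.11), Acvr1 (-0.79 ± 0.08) and Itgb1 (-0.58 ± 0.06) among the lower. This comparison shares its induced msx2-line libraries with the induction comparison. The main fit did not pair same-numbered libraries here or in any other comparison. With the replicate number as a block, which pairs these libraries by way of the uninduced ones, Tgfb1 and Ltbp4 passed here as well.

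In uninduced myotubes 0 of the 10 genes passed by edgeR, against a background of 0.0616% (10 genes, 0.00616% higher and 0.0554% lower), although 1584 genes, 2 of the 10 among them, had an unadjusted p under 0.05. These were Tgfb2, at 0.18 ± 0.08 log2, and Tgfb3, at -0.25 ± 0.07, and both had msx2-line and GFP-line libraries that did not overlap. With the replicate number as a block, which pairs these libraries, edgeR called 173 genes and Tgfb3 among the 10 (-0.25, adjusted p = 0.0463). DESeq2 called 154 genes and 0 of the 10. Of the 61 other pathway genes 0 passed by edgeR, 6 had an unadjusted p under 0.05 and DESeq2 called 1.

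In myoblasts 4 of the 10 genes passed, all higher in the msx2 line, against a background of 16.3%, 9.09% higher and 7.24% lower. Tgfb3 differed by 0.69 ± 0.09 log2 (edgeR adjusted p = 0.000142), Tgfb2 by 0.58 ± 0.10 (adjusted p = 0.00167), Tgfbr2 by 0.48 ± 0.15 (0.0381) and Ltbp3 by 0.34 ± 0.09 (0.0164). Tgfb2 and Tgfb3 passed whichever myoblast library was left out. Tgfbr2 did not pass when any 1 of the 4 was left out (adjusted p = 0.0696 to 0.255), nor did Ltbp3 without msx2-line replicate 1, GFP-line replicate 1 or GFP-line replicate 2 (0.0795 to 0.202). With the GC offset 2 of the 10 genes passed, Tgfb2 and Tgfb3, and 1068 genes in all, against 2652 without it, while Ltbp3 (0.14, adjusted p = 0.434) and Tgfbr2 (0.44, adjusted p = 0.104) did not. The median log2 difference was -0.30 in the tenth of genes with the lowest GC content and 0.28 in the tenth with the highest. Each line had only 2 myoblast libraries. Of the 61 other pathway genes 7 were higher and 3 lower in msx2-line myoblasts, a share of 16.4%, near the background. The lower ones were Usp15 (-0.88 ± 0.10), Trim33 (-0.47 ± 0.07), for a ubiquitin ligase of SMAD4, and Skil (-0.48 ± 0.11). Of smallest adjusted p among the higher were Cdkn1a (0.55 ± 0.07), Tgfbrap1 (0.28 ± 0.07) and Furin (0.39 ± 0.10). The calls of Tgfbrap1, Furin and Skil ended in 5, 5 and 4 of 11 alternatives. Msx2 averaged 16.6 ± 0.28 CPM in msx2-line myoblasts and 1.43 ± 0.22 CPM in GFP-line myoblasts (SD, n = 2 each), and its part in these differences was not tested.

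The pattern of each ligand over the 6 groups was set beside 11525 genes with a mean of at least 5 CPM, by the root mean square difference of centred log2 group means, which is 0 for the same pattern. Closest to Tgfb1 were Chpf (0.03), Npc2 (0.03) and Akr7a5 (0.03), where the median gene was at 0.44. Closest to Tgfb3 were AI464131 (0.06), Dusp28 (0.07) and Tpm2, for a muscle tropomyosin (0.10), where the median gene was at 1.07. Tgfb2 had looser matches, Inppl1 (0.14), Fam174a (0.14) and Alpk2 (0.15), where the median was at 0.81. Among the 10 genes themselves the closest pairs were Tgfb1 with Ltbp3 (0.15) and Tgfbr2 with Tgfbr3 (0.19), and the farthest was Tgfb3 with Ltbp4 (2.47). These are descriptions over 6 groups, with no test.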

How the data were processed

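RNA sequencing read counts were analysed for 16 libraries in 6 groups. The counts were deposited by the authors as whole numbers per gene, not normalized, for 19866 entries. Named without roles, per the submitters' processing notes, are the build mm9 and edgeR 3.6.8, SAMtools 0.1.19 and TopHat2 2.0.11. How reads were counted, with which annotation and with what strand setting is not given in the sources used here. The library kit was a stranded one, per the labels' protocols. The 67 entries lacking a symbol took 0.0601 to 0.0878% of a library's counts and did not enter the fit.

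All libraries entered 1 model with a coefficient for each group (edgeR 4.0.16 in R 4.3.3, with limma 3.58.1), after TMM scaling and filterByExpr at a minimum count of 10, which kept 16245 genes. Tests were two-sided robust quasi-likelihood F-tests. Each of the 9 comparisons had its own Benjamini-Hochberg adjustment across the tested genes, with a threshold of 0.05. Fold changes are edgeR's shrunken values. A standard error is the unshrunken log2 fold change divided by the square root of F. CPM are counts over the TMM-adjusted library size. Transcript length and GC content came from the longest GENCODE M21 (GRCm38) transcript of a gene (18657 symbols matched directly, 1000 by an older symbol, 142 not). Gene coordinates in the files' build are not used here. The fit was also run on simulated counts with known changes, for msx2 induction only. Those libraries were simulated as independent, so that run did not cover replicate pairing or the GC trend.

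Alternatives were RLE scaling, no filter, the replicate number as a block, a GC offset, both together, only the compared groups, DESeq2 1.42.0 and leaving out each library. Same-numbered libraries deviated together in all 3 pairs of both inductions (correlations of 0.207 to 0.508 in the msx2 line and 0.359 to 0.453 in the GFP line) and of uninduced myotubes between lines (0.177 to 0.288), so the numbers pair them there. Between lines in induced myotubes the same-numbered correlations were 0.0912 to 0.247, all above those of the other pairs (0.0432 at most), but the lowest fell short of the cut used. By that cut alone the numbers did not pair libraries there. However, the numbers pair induced with uninduced myotubes in each line, and uninduced myotubes between lines. Through these links same-numbered induced libraries of the lines are paired as well. In comparisons with myoblasts the numbers were not used to pair libraries.

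All 10 members are named in every comparison. Other genes come from 4 lists, with up to 2 risers and 2 fallers per list of smallest adjusted p for msx2 induction, the difference of inductions and GFP-line differentiation, and up to 3 each way over all lists elsewhere. Members and lists were chosen with earlier results of these data known. Nrros, Ccn2 and Timp1 were not analysed here, the first pair being counted under the older symbols Lrrc33 and Ctgf. A result on gene overlap is not reported here.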

Additional observations from a re-analysis of the deposited data

Results flagged for a closer look

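Each result here is a difference between the msx2 line and the GFP line, msx2 minus GFP, in the log2 change of the same contrast, tested by edgeR as a difference of differences. For induction over no induction it was -1.11 for Tgfb2, -0.30 for Tgfb3, -0.56 for Ltbp1 and 0.47 for Ltbp3. Among the other pathway genes it was -1.46 for Itgb6, -0.64 for Itgb1, -0.60 for Acvr1, -0.46 for Zfyve9, -1.14 for Acta2 and -0.37 for Cdkn2b on the negative side, and 0.81 for Ski and 0.70 for Smad3 on the positive side. Of the 10 members, 3 were thus more negative and 1 more positive in the msx2 line, against 8.78% and 9.15% of all genes tested. The GFP-line changes of all 10 lay within 0.11 of 0. Of 19 alternatives, the difference passed in 8 for Tgfb3, 18 for Ltbp3, 7 for Acta2 and 8 for Cdkn2b, and in all 19 for the other genes of this paragraph.

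For uninduced myotubes over myoblasts the difference was -0.94 for Tgfb3, -0.51 for Cdkn1a and -0.38 for Tgfbrap1, for a protein that binds TGF-beta receptors. It was 0.87 for Usp15, 0.52 for Trim33 and 0.51 for Skil, for a relative of Ski. The calls of Skil and Tgfbrap1 ended in 9 and 4 of 17 alternatives. Tgfb3 was already higher in msx2-line than in GFP-line myoblasts, by 0.69 log2, while in uninduced myotubes the log2 value of the msx2 line over the GFP line was -0.25, which passed only with the replicate block, alone or with the GC offset.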

How the results depend on the processing

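Of 1230 values of the 10 genes under alternatives, 1101 kept their direction and their side of the threshold, 40 no longer passed, 37 newly passed and 52 changed sign. Tgfb2, Tgfb3, Ltbp1 and Ltbp3 after msx2 induction passed under every alternative run, whereas Tgfbr1 did not pass with only the compared groups (adjusted p = 0.0685), nor Tgfbr3 with those (0.0872) or with no filter (0.0609). Of 13 alternatives for that comparison, Tgfbr1 passed in 8, Tgfbr2 in 10 and Tgfbr3 in only 5. Between lines in induced myotubes the block added Tgfb1 (adjusted p = 0.0495) and Ltbp4 (0.0218). Why the others moved was not tested, beyond fewer libraries where one was left out. Scaling by RLE moved the median of all genes by less than 0.1 log2. Tgfbr3 had 74 to 281 reads per library, and the other 9 genes had at least 160 in every library.

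Sign changes were in genes that had not passed the comparison concerned. The reversed values reached 0.16 for Ltbp4, in the difference of inductions without uninduced msx2-line replicate 2. After msx2 induction Ltbp2 was -0.067 with the GC offset and -0.066 with block and GC offset together, and as a difference of inductions -0.036 and -0.034. With differentiation Ltbp1 in the msx2 line was -0.0032 with RLE scaling, -0.0031 with DESeq2 and -0.032 with no filter. In the GFP line Tgfbr1 was -0.15 with the GC offset, alone or with the block, and Ltbp2 was -0.0051 with no filter and -0.041 with the block. In the difference of differentiations Ltbp1 was 0.0029 with the GC offset and 0.0035 with block and GC offset.

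With the replicate block the members called were 7 in msx2 induction and 4 in the difference of inductions, as without it. Over all genes the block called 6217 in msx2 induction, against 5287 without it, and 3824 in the difference of inductions, against 2914. Between lines in induced myotubes the block called 6626 genes, against 5740. In comparisons with myoblasts pairing could not be judged. There the block called 6 members in the difference of differentiations (4 with the GC offset too, 6 with DESeq2). Between lines in myoblasts the block called 7 members (2 with the GC offset, 9 with only the compared groups). Between lines in uninduced myotubes it called 1 member, also with the GC offset. Over all genes, GFP-line induction gave 5 calls, against 9 with the block, 11 with block and GC offset, 10 with DESeq2 and 3 with only the compared groups. The difference of differentiations gave 1345, against 2264 with the block and 583 with the GC offset. Lines in uninduced myotubes gave 10, against 20 with no filter, 173 with the block, 20 with the GC offset, 278 with both, 154 with DESeq2 and 1 with only the compared groups. Lines in myoblasts gave 2652, against 1068 with the GC offset and 5173 with only the compared groups.

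Leaving out 1 library gave 3 to 7 genes for GFP-line induction, 439 to 1642 for the difference of differentiations (1 to 5 members), 2 to 21 for uninduced myotubes and 764 to 2152 for myoblasts (2 to 3 members). For msx2 induction the log2 ranges that crossed 0 were -0.092 to 0.25 for Ltbp2 and -0.43 to 0.11 for Ltbp4. For GFP-line induction the log2 ranges that crossed 0 were -0.13 to 0.088 for Tgfb1, -0.086 to 0.011 for Tgfb3, -0.17 to 0.022 for Tgfbr1, -0.16 to 0.039 for Tgfbr2, -0.13 to 0.046 for Tgfbr3, -0.076 to 0.018 for Ltbp1, -0.16 to 0.12 for Ltbp2 and -0.24 to 0.10 for Ltbp4. For the difference of inductions the log2 ranges that crossed 0 were -0.062 to 0.28 for Ltbp2 and -0.37 to 0.16 for Ltbp4. For msx2-line differentiation the log2 ranges that crossed 0 were -0.035 to 0.024 for Ltbp1. For GFP-line differentiation the log2 ranges that crossed 0 were -0.0076 to 0.17 for Tgfbr1 and -0.096 to 0.16 for Ltbp2. For the difference of differentiations the log2 ranges that crossed 0 were -0.23 to 0.038 for Tgfbr3. For lines in uninduced myotubes the log2 ranges that crossed 0 were -0.075 to 0.14 for Tgfb1, -0.0061 to 0.30 for Tgfbr1, -0.012 to 0.25 for Ltbp2 and -0.067 to 0.032 for Ltbp3. For lines in myoblasts the log2 ranges that crossed 0 were -0.21 to 0.051 for Tgfbr3.

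Per kilobase of the median transcript, levels in uninduced msx2-line myotubes were 75.1 for Tgfb1, 125 for Tgfb2, 30.03 for Tgfbr1, 22.3 for Tgfbr2, 3.69 for Tgfbr3, 89.9 for Ltbp1, 8.85 for Ltbp2, 104 for Ltbp3 and 2.52 for Ltbp4.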
